A study of Mus musculus with 12 samples.

Results

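Secreted WNT proteins, the Frizzled receptors that bind them and the secreted proteins that keep ligand and receptor apart were followed in the gastrocnemius muscle of mice colonized with feces from sedentary or trained donors. Members were the transcript clusters (array features that stand for a gene) whose single annotated symbol was Wnt, Fzd, Sfrp or Dkk followed by a number and, in some, the letter a or b. This gave 38 transcript clusters of 37 genes, out of 28944 transcript clusters and 19938 genes with a single-symbol transcript cluster. They were 20 transcript clusters of Wnt ligands, 10 of Frizzled receptors, 4 of secreted Frizzled-related proteins (SFRP) and 4 of Dickkopf proteins (DKK), and *Wnt4* had 2. Male germ-free mice of the outbred strain Tsl;ICR[GF], 11 weeks old by the labels, were gavaged with feces from sedentary mice (RS) or from treadmill-trained mice (RT), and 6 mice per group were killed after 1 week, fasted. Both groups were fed a high-fat diet, so neither is a lean or a germ-free control. Mice were housed together and received identical fecal samples, so p-values measure only the spread between these mice, and the donors' training cannot be told apart from the feces and cages that came with it.

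WNT proteins are lipid-modified ligands that leave the cell with the help of dedicated carriers and bind Frizzled receptors together with LRP co-receptors. Binding stabilizes beta-catenin, which enters the nucleus and acts with TCF and LEF factors, while other Frizzled signals run through small GTPases and calcium. SFRP proteins carry a Frizzled-like domain and bind WNT ligands outside the cell, and DKK proteins act on the LRP co-receptors. In adult muscle the pathway is known for its part in regeneration, in fibroblast behavior and at the nerve-muscle contact, and many of its secreted components are made by cells between the fibers rather than by the fibers themselves.

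The promoters are shown for those members that were higher in RT and have a RefSeq window. They are *Sfrp2*, *Dkk2*, *Fzd1*, *Fzd4* and *Fzd7*. Each line holds the 250 bases before the annotated start, 5′ to 3′ on the gene's strand, from RefSeq in build GRCm38.p6. Capitals mark matches, on either strand, to a TCF/LEF motif (CTTTGAA or CTTTGAT or CTTTGTA or CTTTGTT), to the TATA box TATAAA and to the GC box GGGCGG. Overlapping GC boxes were counted separately.
Sfrp2: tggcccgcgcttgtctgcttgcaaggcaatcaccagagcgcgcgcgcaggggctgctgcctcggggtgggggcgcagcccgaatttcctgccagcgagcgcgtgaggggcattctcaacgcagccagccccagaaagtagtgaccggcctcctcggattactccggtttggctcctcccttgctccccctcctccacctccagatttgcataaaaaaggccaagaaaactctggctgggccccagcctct
Dkk2: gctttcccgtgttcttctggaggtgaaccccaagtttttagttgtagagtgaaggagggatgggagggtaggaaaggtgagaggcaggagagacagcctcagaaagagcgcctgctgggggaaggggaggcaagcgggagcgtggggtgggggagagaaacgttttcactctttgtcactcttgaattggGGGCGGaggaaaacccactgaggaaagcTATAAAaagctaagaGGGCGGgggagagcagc
Fzd1: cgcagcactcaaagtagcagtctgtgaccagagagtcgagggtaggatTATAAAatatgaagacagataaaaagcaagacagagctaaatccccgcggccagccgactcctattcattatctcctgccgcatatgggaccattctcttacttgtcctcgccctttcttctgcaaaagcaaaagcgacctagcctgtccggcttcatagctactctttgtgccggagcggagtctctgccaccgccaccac
Fzd4: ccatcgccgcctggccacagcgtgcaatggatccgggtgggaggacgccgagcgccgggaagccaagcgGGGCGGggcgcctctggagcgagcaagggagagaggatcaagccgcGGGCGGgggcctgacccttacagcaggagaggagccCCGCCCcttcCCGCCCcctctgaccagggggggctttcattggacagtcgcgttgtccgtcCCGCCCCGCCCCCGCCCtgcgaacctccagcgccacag
Fzd7: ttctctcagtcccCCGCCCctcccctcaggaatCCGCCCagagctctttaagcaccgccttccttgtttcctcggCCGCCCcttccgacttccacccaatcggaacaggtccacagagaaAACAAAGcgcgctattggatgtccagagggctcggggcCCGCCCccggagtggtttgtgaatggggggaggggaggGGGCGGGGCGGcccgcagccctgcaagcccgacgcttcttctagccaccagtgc
The *Sfrp2* window lies at chr3:83766071-83766320 on the plus strand and held 16 CpG dinucleotides and none of the 3 motifs. The *Dkk2* window, chr3:132085042-132085291 on the plus strand, held a TATA box 32 bases before the start, and 2 GC boxes. The *Fzd1* window, chr5:4758217-4758466 on the minus strand, held a TATA box 202 bases before the start. The *Fzd4* window, chr7:89404116-89404365 on the plus strand, held 7 GC boxes and 25 CpG. The *Fzd7* window, chr1:59481897-59482146 on the plus strand, held 6 GC boxes and, 130 bases before the start, the only TCF/LEF match among these 5. Windows were held for 25 of the 37 member genes, 28 windows in all, since *Wnt5b* has 3 and *Wnt11* has 2. A TCF/LEF match was in 4 of the 28 (14.3%) against 14.8% of all 32851 windows, and a TATA box in 4 (14.3%) against 12.4%. A GC box was in 20 (71.4%) against 32.7%, and the median number of CpG was 22 (4 to 48) against 6 over all windows. Of the 28 windows, 25 had more CpG than the median of all windows, among them that of *Fzd10*, lower in RT, with 37. These matches describe the letters in the windows and were not measured as binding.

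The array values are log2 signals, so a difference of 1 is a doubling, and signals of different transcript clusters are set by their probes and do not rank genes by RNA amount. The median signal was 4.40 to 4.63 on all arrays. Arrays RS-4 and RS-6 had the smallest spread of values (SD of 1.97 and 1.99, against 2.06 to 2.15 elsewhere), so results are also given without RS-4 and RS-6. The 8 fiber genes used to check the tissue (*Acta1*, *Ckm*, *Myh4* and others) had a mean signal of 12.23 to 12.46 in RS and 12.37 to 12.44 in RT, and 0 of the 8 were called between the groups. The call rule was that of the study, an unadjusted p under 0.05 together with an adjusted p under 0.1, applied to limma fits, and every adjusted p below is from limma over all 28944 transcript clusters.

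Of the 38 member transcript clusters, 8 rose in RT, 3 fell and 27 were not called. Over all transcript clusters 11.9% were called higher, 13.0% lower and 24.9% in either direction, so 11 of 38 called in either direction is a share near that of the whole array, with proportionately more of the members higher and fewer lower. No test was made of these shares. The members that rose were *Sfrp4*, *Sfrp1*, *Sfrp2*, *Dkk2*, *Fzd4*, *Fzd7*, *Fzd1* and *Fzd8*, that is, secreted antagonists and receptors and 0 ligands. Those that fell were *Wnt8a*, *Wnt7a* and *Fzd10*. The array identifiers of the 3 SFRP transcript clusters were 10403834 for *Sfrp4*, 10570957 for *Sfrp1* and 10492798 for *Sfrp2*. The median change over the members was −0.04, against −0.01 over all transcript clusters. An unadjusted p under 0.05 was reached by 14 members, the called ones and *Dkk1*, *Wnt10a* and *Wnt2b*. Only *Sfrp4* had no overlap between the 6 RS and the 6 RT arrays, 1 of 38 with RT above and 0 of 38 with RT below, against 2.69% and 3.10% of all transcript clusters.

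**Figure D1:**
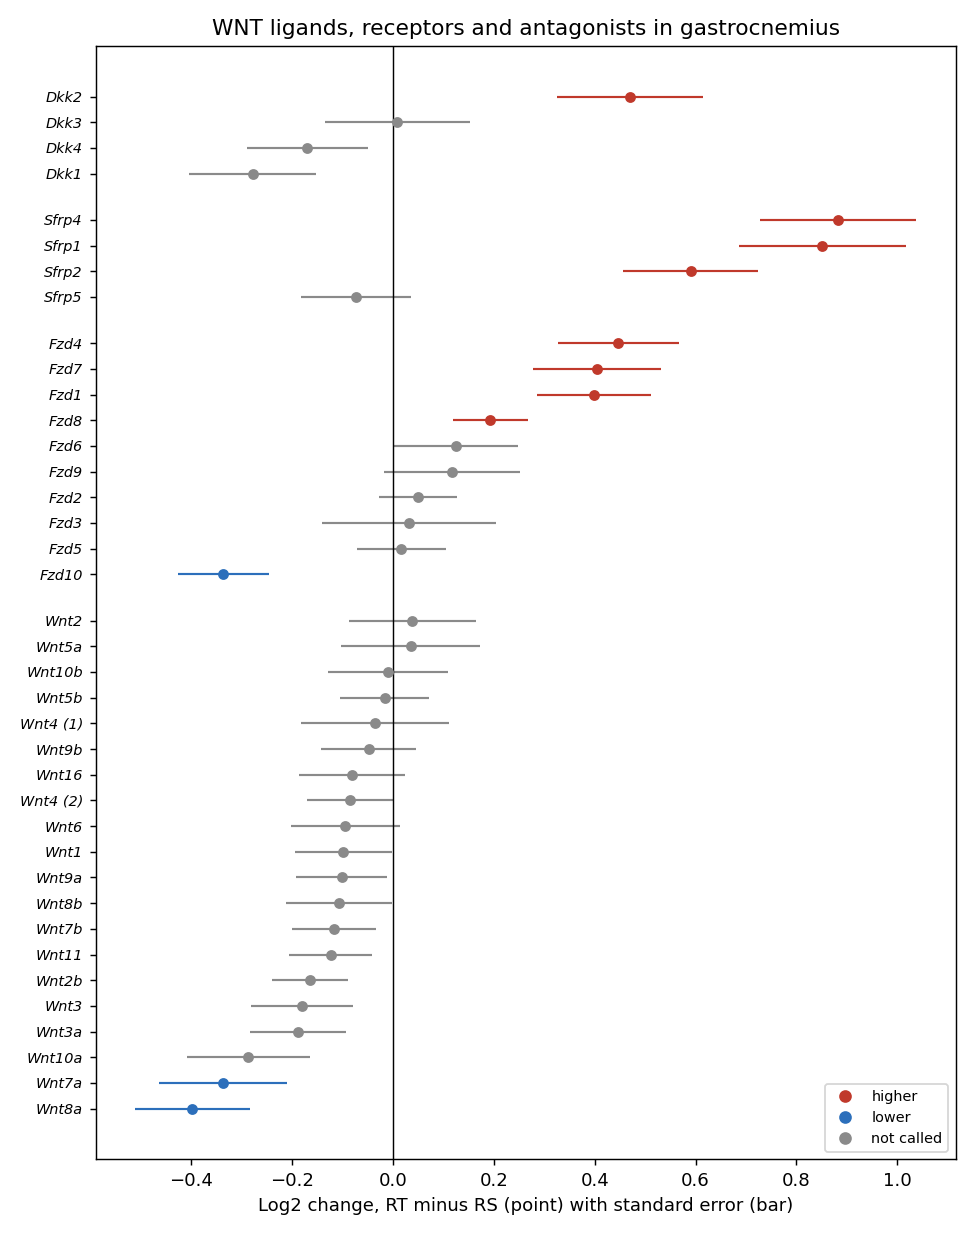
Log2 change (RT minus RS, horizontal axis) of the 38 WNT members by family, as points with the standard error from limma as bars (6 mice per group; red higher, blue lower, gray not called). *Sfrp4*, *Sfrp1* and *Sfrp2* lie farthest to the right at 0.88, 0.85 and 0.59, and 18 of the 20 Wnt ligand points lie left of 0. Over all 28944 transcript clusters, 15205 changes were negative.

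Calls on this array went with signal, and the members were read against that. Among the 14472 transcript clusters with the higher mean signal (the brighter ones), 20.6% were called higher and 10.7% lower, whereas in the 14472 dimmer ones the shares were 3.21% and 15.3%. Of the 19 brighter members, 7 rose and 0 fell. Of the 19 dimmer members, 1 rose (*Sfrp1*) and 3 fell. *Sfrp1*, at a mean signal of 4.25, thus rose where few transcript clusters did: in its bin, of 10 bins of equal size by signal, 5.6% were called higher and 24.0% lower. *Wnt7a* and *Wnt8a* fell in a bin with 23.4% called lower and 3.8% higher, and *Fzd10* shared the bin of *Sfrp1*. *Fzd4* and *Fzd7* rose in a bin with 30.3% called higher.

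**Figure D2:**
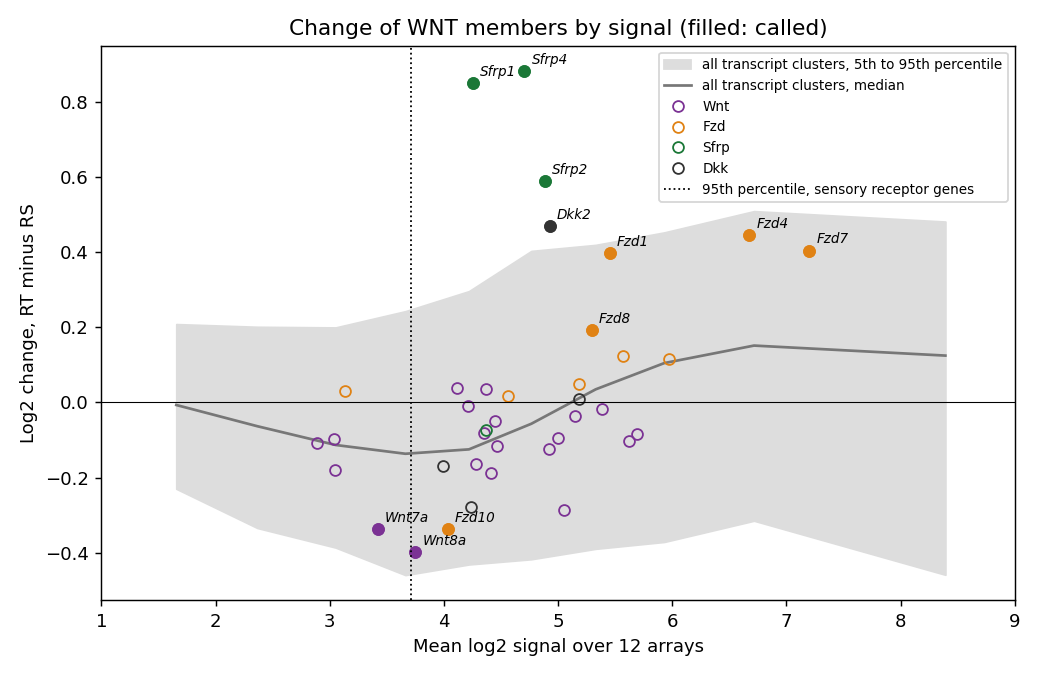
Log2 change (RT minus RS, vertical axis) against the mean log2 signal over 12 arrays (horizontal axis) for the 38 members, filled where called, over the median (gray line) and the 5th to 95th percentiles (gray band) of all transcript clusters in 10 bins by signal. *Sfrp1*, *Sfrp2*, *Sfrp4* and *Dkk2* lie above the band, and *Fzd1*, *Fzd4*, *Fzd7*, *Fzd8*, *Wnt7a*, *Wnt8a* and *Fzd10* lie inside it. The dotted line at 3.71 is the 95th percentile of sensory receptor genes.

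Genes of olfactory, vomeronasal and trace amine receptors were taken as mostly not expressed in muscle, which was not measured here. They gave an approximate level of signal for probes without their transcript, although 34 of them were called higher and 47 lower. The mean signal of their 1206 transcript clusters had a 95th percentile of 3.71, and 33 members lay above it. *Wnt1*, *Wnt3*, *Wnt7a*, *Wnt8b* and *Fzd3* lay at or below it, and *Wnt8a*, at 3.75, lay just above. Above the 99th percentile, 4.53, were 19 members, 8 of 10 Frizzled receptors, 7 of 20 Wnt ligands, 2 of 4 SFRP and 2 of 4 DKK. Of the 11 called members, *Wnt7a*, *Wnt8a*, *Fzd10* (4.03) and *Sfrp1* (4.25) had a mean signal below the 99th percentile, a signal that some sensory receptor genes also reached. For *Sfrp1*, 3 RS mice were at or below the 95th percentile of 3.71, while all RT mice were above it. Against the 99th percentile of 4.53, RT-5 (4.33) lay below. RT-2 (4.56), RT-3 (4.59) and RS-1 (4.57) lay just above it.

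The SFRP genes showed the members' largest rises. SFRP4, SFRP1 and SFRP2 bind WNT ligands in the matrix, and *Sfrp2* and *Sfrp4* are made mostly by fibroblast-like cells. *Sfrp4* was lowest at 4.03, had a median of 4.26 and was highest at 4.55 in RS, and was lowest at 4.74, had a median of 5.06 and was highest at 5.85 in RT. The lowest RT mouse was above the highest RS mouse. The change was 0.88 (SE 0.15, 1.84-fold, adjusted p = 0.00256), and the exact permutation p, two-sided, was 0.00216, the smallest that 6 against 6 can give. *Sfrp1* ran from 3.44 through a median of 3.77 to 4.57 in RS and from 4.33 through 4.63 to 5.19 in RT. RS-1 alone among RS mice reached the RT range, and the next RS mouse was at 3.83. The change was 0.85 (SE 0.17, 1.80-fold, adjusted p = 0.00454, exact permutation p = 0.00649). *Sfrp2* ran from 4.32 through 4.56 to 4.92 in RS and from 4.84 through 5.13 to 5.68 in RT, with 5 of 6 RT mice above all RS mice. The change was 0.59 (SE 0.13, 1.51-fold, adjusted p = 0.0103, exact permutation p = 0.00433). *Sfrp5*, the other SFRP gene on the array, had a median of 4.475 in RS and 4.365 in RT, with a change of −0.07 (95% interval −0.30 to 0.16, adjusted p = 0.665). Its difference was above 0 under quantile normalization, cyclic loess, median centering and the spread covariate.

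The 3 SFRP calls were the most stable among the 11 called members. All 3 were called under all 25 alternatives counted for single genes. The adjusted p was at most 0.0438 for *Sfrp4*, 0.0807 for *Sfrp1* and 0.0946 for *Sfrp2*. Without RS-4 and RS-6 the changes were 0.82, 0.76 and 0.67. In that fit 5.70% of all transcript clusters were called higher and 6.19% lower, and the members called were the 3 SFRP genes and *Fzd1*, 4 higher and 0 lower. When array spread entered the fit as a covariate, 2.53% of all were called higher and 3.07% lower, and the 3 SFRP genes were the members called.

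**Figure D3:**
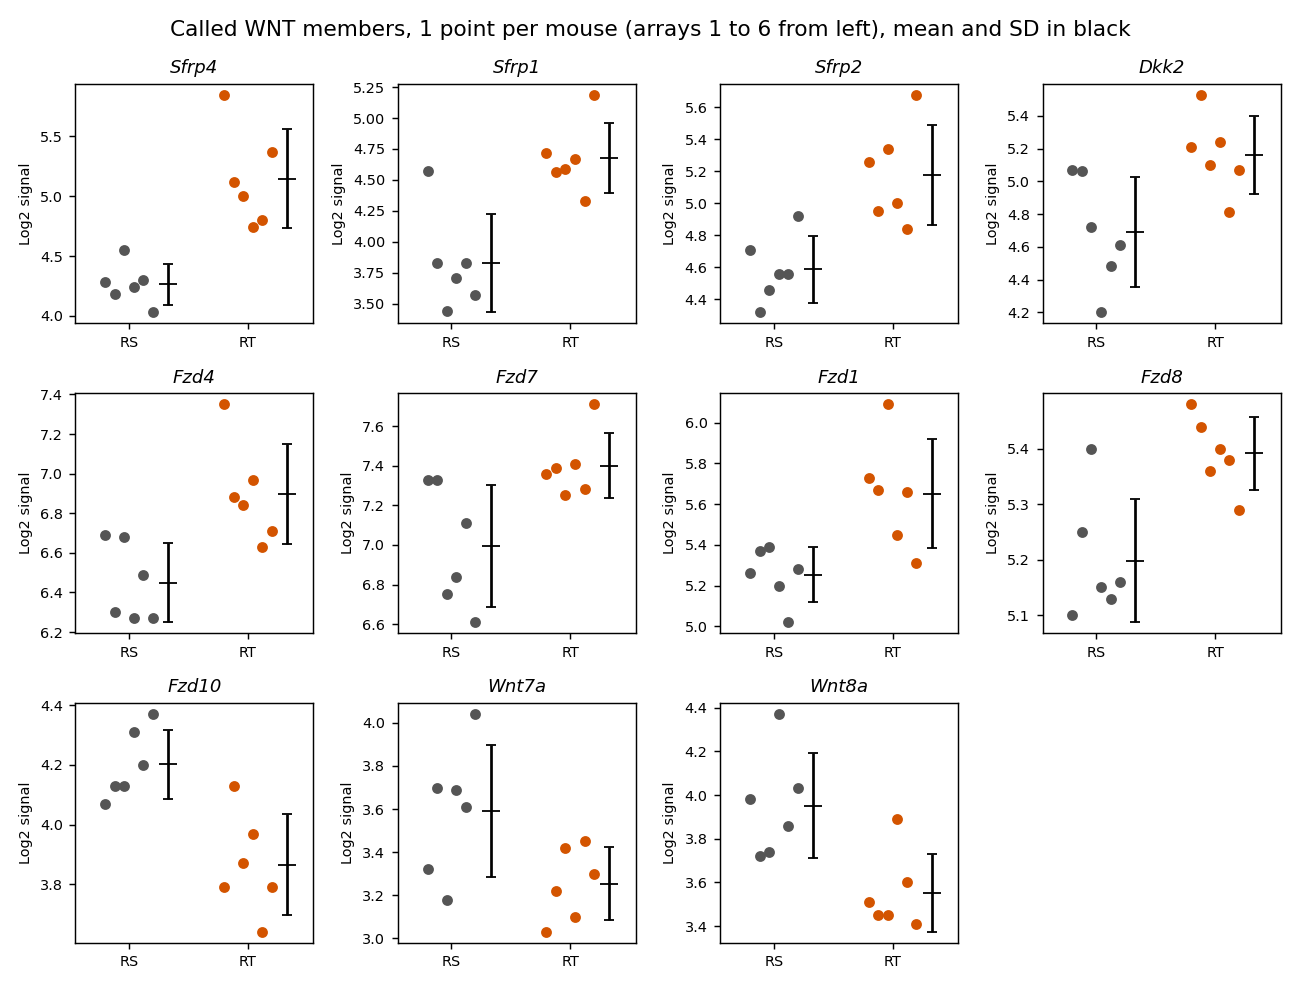
Log2 signal (vertical axis, a scale of its own in each panel) of the 11 called members in the 6 RS mice (gray) and 6 RT mice (orange), arrays 1 to 6 from left in each group, with the mean and SD in black. In *Sfrp4* the groups do not overlap (RS up to 4.55, RT from 4.74), and in *Sfrp1* only RS-1, at 4.57, lies among the RT mice.

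Among the DKK genes only *Dkk2* was called. DKK2 binds LRP co-receptors and, unlike DKK1, can act for or against the pathway depending on the cell. *Dkk2* ran from 4.20 through a median of 4.665 to 5.07 in RS and from 4.81 through 5.155 to 5.53 in RT. RS-1 and RS-2 lay among the RT mice, and 4 of 6 RT mice lay above all RS mice. The change was 0.47 (SE 0.15, 1.39-fold, adjusted p = 0.0391, exact permutation p = 0.0173). Without RS-4 and RS-6 it was 0.33 (adjusted p = 0.171), and with the spread covariate 0.25 (adjusted p = 0.412). *Dkk3*, the brightest of the family and a distant relative that does not act as a classical LRP antagonist, ran from 4.76 through 5.09 to 5.61 in RS and from 4.84 through 5.19 to 5.43 in RT, with a change of 0.01 (95% interval −0.30 to 0.31). *Dkk1*, the classical LRP antagonist, differed by −0.28 (95% interval −0.54 to −0.01, adjusted p = 0.135), and *Dkk4* by −0.17 (adjusted p = 0.340).

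Frizzled receptors rose in 4 of 10 cases and fell in 1. Of the 10, 8 were among the brighter transcript clusters, of which 20.6% were called higher, and these 8 held the 4 that rose. The median change of all transcript clusters was 0.15 in the bin of *Fzd4* and *Fzd7* and 0.035 in that of *Fzd1* and *Fzd8*. Changes of the Frizzled receptors were positive in 9 of 10, with a median of 0.12. This median stayed between 0.08 and 0.20 under quantile normalization, cyclic loess, median centering, the spread covariate and without RS-4 and RS-6. *Fzd4*, the receptor of Norrin as well as of WNT ligands and well known in blood vessels, ran from 6.27 through a median of 6.395 to 6.69 in RS and from 6.63 through 6.86 to 7.35 in RT. Of the RT mice, 5 of 6 lay above all RS mice. The change was 0.45 (SE 0.12, 1.36-fold, adjusted p = 0.0225, exact permutation p = 0.00866). *Fzd1* ran from 5.02 through 5.27 to 5.39 in RS and from 5.31 through 5.665 to 6.09 in RT. RT-6 was the RT mouse within the RS range. The change was 0.40 (SE 0.11, 1.32-fold, adjusted p = 0.0287, exact permutation p = 0.00866), and leaving out RS-4 and RS-6 gave 0.39 with an adjusted p of 0.0903. *Fzd7*, a WNT7A receptor of satellite cells and the brightest member, ran from 6.61 through 6.975 to 7.33 in RS and from 7.25 through 7.375 to 7.71 in RT. RS-1 and RS-2 were both at 7.33, within the RT range. The change was 0.41 (SE 0.13, 1.32-fold, adjusted p = 0.0413, exact permutation p = 0.0216).

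*Fzd8* ran from 5.10 through 5.155 to 5.40 in RS and from 5.29 through 5.39 to 5.48 in RT. RS-3, at 5.40, lay among the RT mice. The change was 0.19 (SE 0.08, 1.14-fold, adjusted p = 0.0879), and the call was lost in 15 of 25 alternatives, among them 9 of the 12 that left out 1 mouse. *Fzd10* ran the other way, from 4.07 through 4.165 to 4.37 in RS and from 3.64 through 3.83 to 4.13 in RT. RT-2 lay within the RS range and the other RT mice below it. It fell by 0.34 (SE 0.09, adjusted p = 0.0227, exact permutation p = 0.00866). Leaving out RS-4 and RS-6 gave −0.27 with an adjusted p of 0.101. In that fit *Fzd4* differed by 0.36 (adjusted p = 0.112) and *Fzd7* by 0.27 (adjusted p = 0.192), so neither was called. *Fzd7* was also not called after cyclic loess (0.27, adjusted p = 0.107) or quantile normalization, and *Fzd10* not after cyclic loess (−0.22, adjusted p = 0.103). *Fzd2*, *Fzd3*, *Fzd5*, *Fzd6* and *Fzd9* were not called, with changes of 0.02 to 0.13.

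Wnt ligands did not rise in any case and 2 of 20 transcript clusters fell. Their changes lay between −0.40 and 0.04 with a median of −0.10, and 18 of 20 were negative. Under quantile normalization, cyclic loess, median centering or without RS-4 and RS-6, 14 of 20 were negative with medians of −0.06 to −0.03, and with the spread covariate 11 of 20 with a median of −0.002. Of the 20, 13 were among the dimmer transcript clusters, of which 15.3% were called lower. Those 13 lay in bins 3 to 5 from the dimmest, where all transcript clusters had median changes of −0.11, −0.14 and −0.125. Over the whole array, 15205 of 28944 changes were negative and 13.0% were called lower. *Wnt8a*, an embryonic ligand, ran from 3.72 through a median of 3.92 to 4.37 in RS and from 3.41 through 3.48 to 3.89 in RT. RT-4 lay within the RS range and the other RT mice below it. It fell by 0.40 (SE 0.11, adjusted p = 0.0288, exact permutation p = 0.0108), and leaving out both doubted RS arrays gave −0.27 (adjusted p = 0.119). *Wnt7a*, a ligand that expands satellite cells and enlarges fibers when supplied to muscle, ran from 3.18 through 3.65 to 4.04 in RS and from 3.03 through 3.26 to 3.45 in RT. The groups overlapped over most of the RT range, and 2 of 6 RT mice lay below all RS mice. It fell by 0.34 (SE 0.13, adjusted p = 0.0800, exact permutation p = 0.0390), a call lost in 15 of 24 alternatives, among them 8 of the 12 that left out 1 mouse. The filter on dim transcript clusters left *Wnt7a* out.

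The brightest ligand was *Wnt4*, known at the nerve-muscle contact. Its brighter transcript cluster ran from 5.56 through 5.73 to 5.95 in RS and from 5.44 through 5.68 to 5.77 in RT, with a change of −0.09 (95% interval −0.27 to 0.10). Its other transcript cluster differed by −0.04, so both gave a difference within the spread of the mice. *Wnt10a* (−0.29, adjusted p = 0.115) and *Wnt2b* (−0.17, adjusted p = 0.142) had an unadjusted p under 0.05 and were not called. Without RS-1, *Wnt10a*, *Wnt3a* and *Dkk1* joined the members called lower, 6 in all. *Wnt5a* and *Wnt11*, ligands known for signals that do not run through beta-catenin, differed by 0.04 and −0.12 and were not called. Some ligand genes lie next to each other in the RefSeq gene table, with no protein-coding gene between: *Wnt10b* with *Wnt1*, *Wnt3a* with *Wnt9a*, *Wnt6* with *Wnt10a*, and *Wnt9b* with *Wnt3*. In these 4 pairs all changes were negative, from −0.29 (*Wnt10a*) to −0.01 (*Wnt10b*), and 0 of the 8 genes were called. Of all 20 ligand transcript clusters, 18 were negative. *Wnt10b*, *Wnt1*, *Wnt9a*, *Wnt6* and *Wnt9b* had another sign under at least 1 other processing of the values.

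The rest of the pathway was read from 111 further genes, of which 107 had a single-symbol transcript cluster. Of these, 26 rose and 11 fell, with a median change of 0.06, and 85 of the 107 were among the brighter transcript clusters, where 20.6% were called higher. Without RS-4 and RS-6, 5 rose and 5 fell. With the spread covariate, 1 rose and 1 fell. After median centering 41 rose and 7 fell, and over all transcript clusters that setting gave 5883 higher and 2414 lower in place of 3445 and 3764. RT lay above all RS in 4 of the 107 (*Ctnnb1*, *Tnks*, *Tnks2* and *Dact1*) and below in 2 (*Sp5* and *Fosl1*). Over all transcript clusters the shares were 2.69% above and 3.10% below, so these counts are near those of the whole array.

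Among 9 co-receptors and other receptors 2 rose and 1 fell. *Gpc3*, a surface proteoglycan that binds WNT and Hedgehog ligands, rose by 0.69 (SE 0.16, adjusted p = 0.0132), from an RS range of 4.16 to 5.25 to an RT range of 4.98 to 5.82. *Ryk*, an atypical WNT receptor, rose by 0.32 (adjusted p = 0.0443), and *Ror2*, a WNT5A receptor, fell by 0.35 (adjusted p = 0.0634). The LRP co-receptors *Lrp5* (0.21, adjusted p = 0.193) and *Lrp6* (0.12, adjusted p = 0.254) were not called. Among 9 genes of the R-spondin axis, which keeps Frizzled receptors at the surface, 0 rose and *Rspo1* fell by 0.22 (adjusted p = 0.0916). Among 12 other secreted or membrane antagonists 0 rose and 3 fell: *Notum*, which removes the lipid from WNT ligands, by 0.36 (adjusted p = 0.0326), the DKK receptor *Kremen2* by 0.28 and the LRP antagonist *Sost* by 0.24. *Frzb*, a relative of the SFRP genes outside the naming rule used here, differed by 0.48 (adjusted p = 0.134), with an RS range of 5.40 to 6.69 and an RT range of 6.35 to 7.06, and *Wif1*, a WNT-binding inhibitor, by −0.18 (adjusted p = 0.238). Among the secreted antagonists measured, those that rose were thus SFRP genes and *Dkk2*. With each mouse left out in turn, the call was lost in 5 of 12 fits for *Ror2*, 9 for *Rspo1*, 6 for *Sost* and 1 for *Kremen2* (without RT-2), and in 0 of 12 for *Gpc3*, *Ryk* and *Notum*. *Ryk* was not called after quantile normalization, after cyclic loess, without RS-4 and RS-6 or with the spread covariate (adjusted p up to 0.401). *Notum* was not called after quantile normalization, after cyclic loess or with the covariate (adjusted p up to 0.227), and *Gpc3* not with the covariate (0.41, adjusted p = 0.198). *Kremen2* was also not called without RS-4 and RS-6 or with the spread covariate (adjusted p up to 0.302). In all, the call was lost in 8 of 25 alternatives for *Ror2*, in 12 for *Sost* and in 17 for *Rspo1*. *Frzb* was called higher without RS-3.

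Of 7 secretion genes, 7 were among the brighter transcript clusters, of which 20.6% were called higher, and 2 rose. *Wls*, the carrier that brings WNT ligands to the surface, ran from 5.68 through a median of 5.885 to 6.13 in RS and from 6.08 through 6.185 to 6.34 in RT, and rose by 0.31 (adjusted p = 0.0359). *Vps29*, part of the retromer that recycles this carrier, rose by 0.38 (adjusted p = 0.0523), and *Porcn*, which lipidates WNT ligands, differed by 0.07 (adjusted p = 0.555). Among 23 cytoplasmic transducers 10 rose and 2 fell. Of the 23, 20 were among the brighter transcript clusters, of which 20.6% were called higher, and these held the 10 that rose. *Ctnnb1*, which encodes beta-catenin, a protein also of cell junctions, ran from 7.92 through 8.42 to 8.60 in RS and from 8.65 through 8.735 to 8.88 in RT. All RT mice lay above all RS mice, and the gene rose by 0.41 (SE 0.10, adjusted p = 0.0163). *Dact1*, a Dishevelled antagonist, rose by 0.49 (SE 0.11, adjusted p = 0.0100), from 4.90 to 5.45 in RS to 5.51 to 6.10 in RT. The kinase *Gsk3a* rose by 0.32, *Apc2*, a relative of *Apc*, fell by 0.36 and *Nkd2*, a Dishevelled-binding inhibitor, fell by 0.30. With each mouse left out in turn, the call of *Nkd2* was lost in 9 of 12 fits and that of *Vps29* in 1 (without RT-6), and the calls of *Wls*, *Ctnnb1*, *Dact1*, *Gsk3a* and *Apc2* in 0. The spread covariate removed all of these calls. Quantile normalization also removed those of *Wls*, *Apc2*, *Vps29* and *Nkd2*, and cyclic loess those of *Wls*, *Gsk3a*, *Apc2*, *Vps29* and *Nkd2*. Leaving out RS-4 and RS-6 removed those of *Wls*, *Gsk3a*, *Vps29* and *Nkd2*. In all, the call was lost in 6 of 25 alternatives for *Vps29* and in 17 for *Nkd2*. The mean signal of *Apc2*, 3.65, was below the 95th percentile of the sensory receptor genes.

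Among 17 nuclear effectors 5 rose, with *Tle4* (0.34) and *Ctbp1* (0.26), both co-repressors, and *Tcf7l1* (0.23) first by size, and *Pygo1*, a beta-catenin co-activator, fell by 0.34. Among 18 genes of the polarity and calcium branches 4 rose, with the GTPases *Rac1* (0.33) and *Rhoa* (0.28) and the polarity gene *Prickle2* (0.27) first, and the cadherin *Celsr1* fell by 0.28. Among 12 commonly used target genes 3 rose and 2 fell. In these 3 lists 16 of 17, 14 of 18 and 10 of 12 genes were among the brighter transcript clusters, of which 20.6% were called higher. *Sp5*, a transcription factor used as a direct readout of beta-catenin, ran from 4.12 through a median of 4.22 to 4.46 in RS and from 3.35 through 3.665 to 3.83 in RT. All RT mice lay below all RS mice, and it fell by 0.61 (SE 0.09, adjusted p = 0.00121). *Axin2*, another direct target and a feedback inhibitor, ran from 5.17 through 5.23 to 5.30 in RS and from 4.89 through 5.015 to 5.25 in RT, a difference of −0.18 (adjusted p = 0.127), and was called lower in 4 of 25 alternatives. *Fosl1*, a subunit of AP-1, fell by 0.35, whereas *Gja1* (0.51), a gap junction protein, *Cd44* (0.50), a hyaluronan receptor, and the cyclin *Ccnd1* (0.43) rose. Targets thus went both ways, and *Cd44* and *Sp5* kept their calls in all 25 alternatives. With each mouse left out in turn, the call was lost in 8 of 12 fits for *Gja1*, 6 for *Ctbp1*, 5 each for *Ccnd1*, *Tle4* and *Tcf7l1*, 3 each for *Rac1* and *Prickle2* and 2 for *Celsr1*. Without RS-6, *Gja1* differed by 0.31 (adjusted p = 0.127). Of the genes of these 3 lists given as changed, those also lost without RS-4 and RS-6 were *Rhoa*, *Gja1*, *Ctbp1*, *Ccnd1*, *Tle4*, *Tcf7l1*, *Rac1* and *Celsr1*, and with the spread covariate *Cd44* and *Sp5* were the ones still called. The RT mean of *Sp5*, 3.65, and that of *Celsr1*, 3.63, were below the 95th percentile of the sensory receptor genes, 3.71, and *Fosl1* and *Prickle2* had a mean signal below their 99th.

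**Figure D4:**
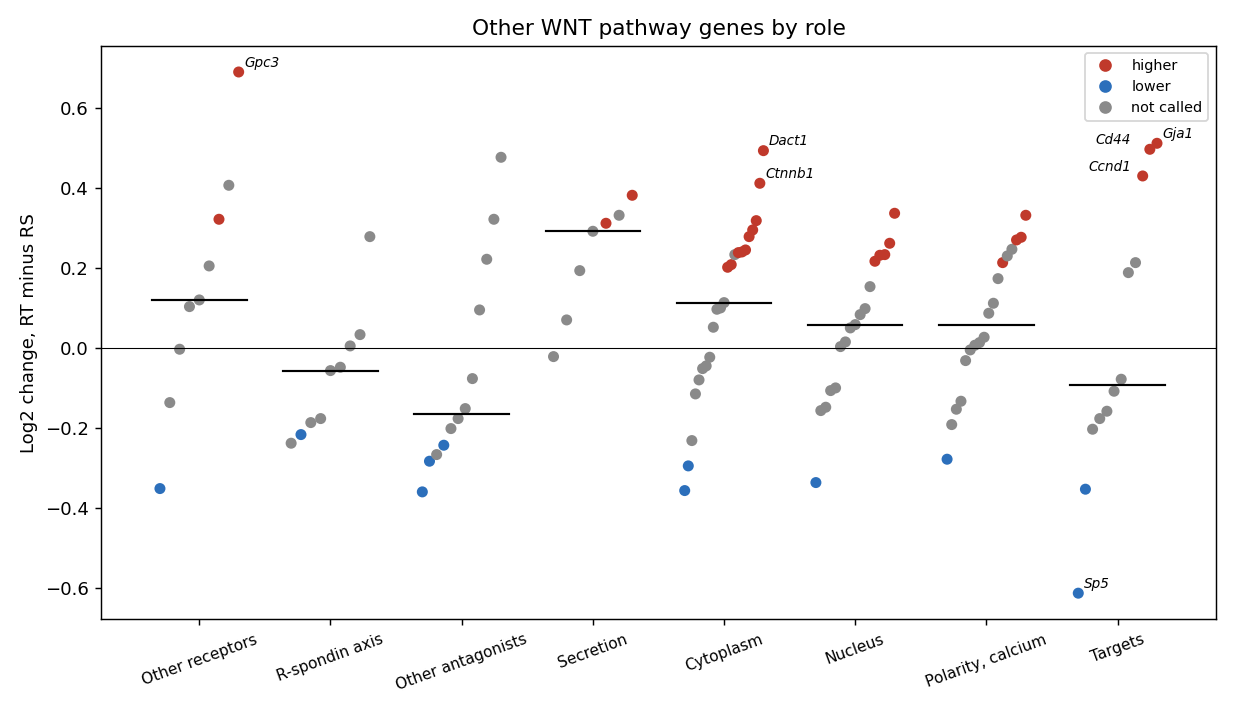
Log2 change (RT minus RS, vertical axis) of the 107 other WNT pathway genes, 1 point per gene in order of change within each role (red higher, blue lower, gray not called; black bars are medians). Points above 0.4 or below −0.4 that were called are named, with *Gpc3* highest at 0.69 and *Sp5* lowest at −0.61.

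Most fibroblast and tendon markers were also higher in RT. Fibroblast markers rose in 6 of 7 (median 0.59), led by *Lum* (1.04) and *Pdgfra* (0.88), and their mean signal was 6.60 to 7.52 in RS and 7.58 to 7.98 in RT. Tendon markers rose in 4 of 5 (median 1.22), led by *Fmod* (1.51) and *Tnmd* (1.24), with mean signals of 5.52 to 6.58 in RS and 6.52 to 6.98 in RT. *Lum*, a matrix proteoglycan, rested partly on RS-6, without which it differed by 0.69, and *Pdgfra* by 0.76. Without RS-4 and RS-6, 4 of 7 fibroblast markers (median 0.45, *Lum* 0.48, *Pdgfra* 0.67) and 3 of 5 tendon markers (median 1.05) were called higher, and with the spread covariate 1 of 7 (*Pdgfra*, 0.55) and 3 of 5. Over *Sfrp1*, *Sfrp2* and *Sfrp4* the mean signal was 4.11 to 4.52 in RS, highest in RS-1, and 4.66 to 5.41 in RT, highest in RT-6. These are the SFRP genes called higher, without *Sfrp5* (−0.07), so the separation of their mean follows from that choice. Among RT mice, RT-6 and RT-1 were highest and RT-5 lowest in both the SFRP mean (5.41, 5.28 and 4.66) and the fibroblast mean (7.92, 7.98 and 7.58). The same mice were highest and lowest in the macrophage mean (5.87, 5.90 and 5.42). RT-6 and RT-1 were also highest in the adipocyte mean (6.36 and 6.01), with RT-2 lowest. The lowest RT mouse was RT-4 in the tendon and endothelial means and RT-6 in that of pericytes and smooth muscle. Among RS mice the highest was RS-1 in the SFRP mean and RS-3 in the fibroblast and tendon means. In whole muscle, more cells of a type and more RNA per cell cannot be told apart, and the part of these cells in the SFRP, DKK and Frizzled results was not tested.

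Other lists moved as well. Endothelial markers rose in 5 of 5 (median 0.54, *Vwf* 0.71 and *Cdh5* 0.56), from 6.30 to 6.88 in RS to 6.96 to 7.37 in RT. Their part in the *Fzd4* result was not tested. Markers of pericytes and smooth muscle rose in 3 of 5 (*Acta2* 0.82, *Myh11* 0.47), from 6.64 to 7.08 in RS to 7.15 to 7.52 in RT. Macrophage markers rose in 4 of 4 (*Mrc1* 1.00, *Cd68* 0.85), from 4.63 to 5.22 to 5.42 to 5.90. Adipocyte markers rose in 3 of 5 (*Adipoq* 1.31, *Cidec* 1.00), from 4.78 to 5.18 to 5.15 to 6.36, with RT-6 highest. Satellite cell markers rose in 0 of 4 and *Cdh15* fell by 0.24, and of 2 Schwann cell markers *Sox10* fell by 0.38, with mean signals of 4.73 to 4.94 against 4.69 to 4.82 and of 4.49 to 5.00 against 4.41 to 4.72. Without RS-4 and RS-6, 3 of 5 endothelial markers, 2 of 5 of pericytes and smooth muscle, 4 of 4 of macrophages and 2 of 5 of adipocytes were called higher, and *Sox10* was not called (−0.24, adjusted p = 0.134). The spread covariate left 2 of 5 endothelial markers called higher and 2 of 5 of pericytes and smooth muscle. It left 3 of 4 macrophage and 1 of 5 adipocyte markers called higher. *Cdh5* lost its call in both fits (0.33, and 0.21 under the covariate). The covariate also removed the calls of *Adipoq* (1.08) and *Sox10* (−0.18). *Vwf*, *Acta2*, *Myh11*, *Mrc1*, *Cd68*, *Cidec* and *Cdh15* kept theirs in both. No marker was at 0.

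**Figure D5:**
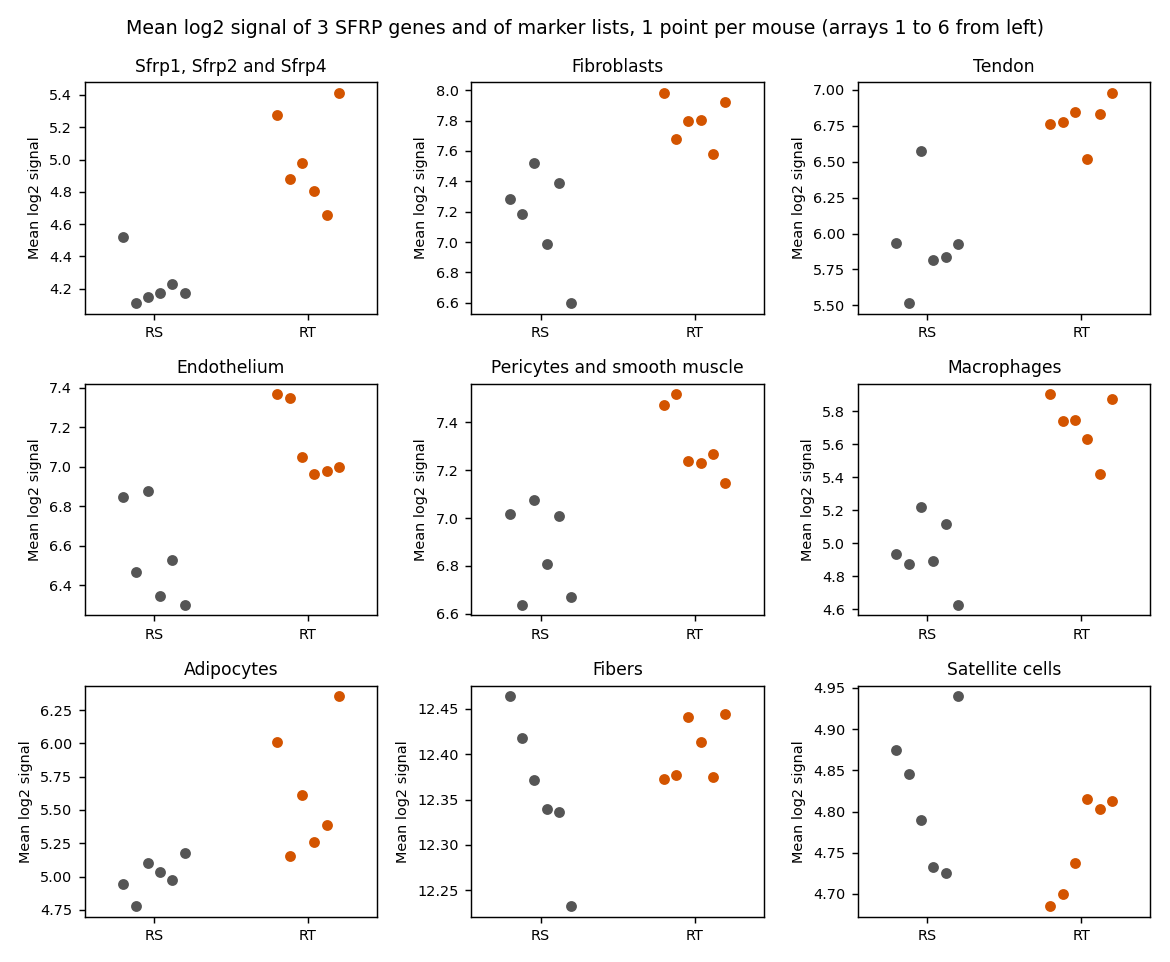
Mean log2 signal (vertical axis, a scale of its own in each panel) over *Sfrp1*, *Sfrp2* and *Sfrp4* and over marker lists, 1 point per mouse (RS gray, RT orange, arrays 1 to 6 from left). RT mice lie above all RS mice for the SFRP genes (from 4.66 against up to 4.52), and for fibroblast (from 7.58 against up to 7.52), endothelial, pericyte and macrophage lists, whereas fiber markers overlap.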

How the data were processed

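Gastrocnemius RNA from 12 recipient mice (6 RS, 6 RT; 250 ng of total RNA each) was measured on Affymetrix Mouse Gene 1.0 ST arrays, 1 per mouse. The deposited values are log2 signals of 28944 transcript clusters (0.53 to 13.67), normalized by the authors with RMA, the robust multi-array average. The methods name RMA in the statistics paragraph and its SST variant in the array paragraph, and which made these values was not settled here. No detection calls are used. The genome build of the array annotation is not given in the sources used here. The table held 0 columns of other samples. Symbols came from the platform annotation (21789 transcript clusters with 1 symbol, 1621 with several, 5534 with none), and all 37 member genes matched the RefSeq gene table by gene identifier with the same symbol.

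RT was compared with RS over all transcript clusters in limma 3.58.1 (lmFit, then eBayes; R 4.3.3), two-sided, with no covariate, and p-values were adjusted by Benjamini-Hochberg. The step was tested on simulated data. An exact permutation test on mean differences (two-sided, 924 splits) was run beside it for single genes. Tables and figures used Python 3.11.15, pandas 2.3.3 and matplotlib 3.10.9. Members, gene lists and tests were chosen with earlier results of these data known. Every called member is named. Up to 3 called genes per direction are named in each list of other pathway genes, with 8 always named (*Lrp5*, *Lrp6*, *Ctnnb1*, *Axin2*, *Wls*, *Porcn*, *Frzb*, *Wif1*), and up to 2 in each marker list, and further names are examples picked with their values in view. A gene with more than 1 transcript cluster was represented in the lists by its brightest. *Tcf7*, *Wisp1*, *Wisp2*, *Runx2* and *Ly6a* were not analysed here.

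Same-numbered RS and RT mice were not treated as pairs: after removing group means their arrays correlated at −0.24 to 0.11, and 0 mice were closest to their own number. Alternatives were quantile normalization, cyclic loess, median centering, the array spread as a covariate, leaving out the dimmest 33.3%, the methods' unmoderated test, eBayes with trend and robust, array weights, a replicate block, leaving out each mouse or both RS-4 and RS-6, an adjusted p under 0.05, single-symbol transcript clusters alone, identical transcript clusters counted once, and the mean of a gene's transcript clusters. Of these 26 alternatives, an adjusted p under 0.05 was not counted for single genes, which thus have at most 25. *Fzd8* and *Wnt7a* were not called at that threshold. The number of arrays limits the precision.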

Additional observations from a re-analysis of the deposited data

Results flagged for a closer look

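In 142 groups of 6 arrays (members and other named genes, RS and RT separately), 8 held a mouse whose gap to the nearest other mouse exceeded Dixon's critical share of the group's range at 95%. Chance gives this in about 1 in 20 groups. Among the members, *Sfrp1* in RS-1 was at 4.57 with the next RS mouse at 3.83, and *Sfrp5* in RS-1 was at 3.91 with the next at 4.38. RT-6 stood apart in *Fzd7* (7.71, next 7.41), in *Fzd2* (4.98, next 5.19) and in *Wnt16* (4.01, next 4.31). Among other pathway genes, *Gja1* was at 4.85 in RS-6 (next 5.77) and at 5.86 in RT-5 (next 6.37), and *Nkd2* was at 4.90 in RT-1 (next 4.50). Without RS-1, *Sfrp1* differed by 1.00 (adjusted p = 0.000344 in limma).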

How the results depend on the processing

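Of the members, 8 were called higher and 3 lower. With each mouse left out in turn, 7 to 8 were higher and 2 to 6 lower, the 6 without RS-1. The lower count was 1 after cyclic loess. Without RS-4 and RS-6 the counts were 4 and 0, and with the array spread as a covariate 3 and 0. Other WNT pathway genes (26 higher, 11 lower) gave 13 to 34 higher and 6 to 14 lower with a mouse left out. They gave 8 higher after quantile normalization, 5 after cyclic loess, 41 higher and 7 lower after median centering, 1 and 1 with the spread covariate, 5 and 5 without RS-4 and RS-6, and 10 and 6 at an adjusted p under 0.05. The cause of these shifts was not tested. The replicate block gave 7 members higher and 3 lower; the numbers are not pairs of mice. *Fzd8* was the member lost under it. *Fzd8* was also lost without RS-1, RS-4, RS-5 or RS-6 and without RT-1 to RT-5 in turn, and *Wnt7a* without RS-2, RS-4, RS-5, RS-6, RT-1, RT-2, RT-4 or RT-6 in turn.

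Among the 46 genes chosen for naming in the text (called members, the brightest of each family and picked pathway genes), signs turned in 3 that were not called. *Dkk3* (0.01) was −0.0071 after quantile normalization, −0.0281 with the spread covariate and −0.0760 to 0.0940 with a mouse left out. *Lrp6* (0.12) was −0.0113 after quantile normalization and −0.0194 after cyclic loess, and *Wnt4* (−0.09) 0.0117 with the spread covariate. Over all 38 members, 14 had another sign in at least 1 of quantile normalization, cyclic loess, median centering, the spread covariate and the fit without RS-4 and RS-6, with 5 to 12 in each. None of the 11 called members was among them, and 11 were Wnt ligand transcript clusters, beside *Sfrp5*, *Fzd9* and *Dkk3*. Over the 46 genes chosen for naming and the alternatives, 925 values kept their direction and side of the threshold, 204 lost the call, 10 gained it and 10 turned sign. Signal over background limits *Wnt1*, *Wnt3*, *Wnt7a*, *Wnt8b* and *Fzd3*, which lay at or below the 95th percentile of sensory receptor genes, and *Apc2* likewise, while *Wnt8a*, *Sp5* and *Celsr1* lay below it in RT alone.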
